A study of Mus musculus with 24 samples.

Results

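B16-D-735 is a B16 melanoma line of the mouse that was derived, as a later generation of dormant cells, from the dormant line B16-D, and the comparison here sets it against that progenitor. Its members are the arrays whose titles read B16-D-735 (3 arrays) and those titled B16-D without a line number (4 arrays, of which replicate 0 is titled 16D), 7 of the 24 arrays of the series. The main result leaves out B16-D replicate 2 and so rests on 6 arrays, 3 against 3.

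The study measured RNA of cultured lines on single-colour Agilent mouse arrays. All melanoma lines carry GFP and stem from B16F1: the parental B16F1-GFP-M (B16-M in the titles, 3 arrays), the dormant B16F1-GFP-D (B16-D), and the DB lines, titled B16-D-733 (4 arrays), B16-D-735 and B16-D-739 (3 arrays); the labels do not say which DB number B16-D-735 is. Among the B16-D-733 arrays, those named replicates 1 and 1b here share line, number and date in their titles. Whether they are repeats of 1 sample is not stated. The other arrays of the series hold leukemia cells. Every melanoma line was grown in DMEM with serum, with no treatment that differed between the lines, and nothing in the labels says that replicates are separate cultures, so a p-value here measures spread between these samples. B16-D and B16-D-735 therefore share the strain, the GFP, the medium and a history of dormancy, and each line was sampled as it grows in a dish, without a host or immune cells.

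Each array carried 62976 spots, of which 59305 measure a transcript. The share of spots well above background was 46.0% in B16-D replicate 0, 52.5% in replicate 1 and 55.2% in replicate 3, and 54.0%, 53.1% and 55.3% in B16-D-735 replicates 0, 1 and 2. B16-D replicate 2 stood apart at 90.3%, with a median intensity of 155.4 against 21.1, 26.7 and 31.6 on the other B16-D arrays. Without it the mean share was 54.1% in B16-D-735 and 51.2% in B16-D (two-sided p = 0.4 in an exact permutation test over 20 divisions, which cannot give less than 0.1). The 75th percentile of intensity, by which arrays are scaled, was higher on every array of B16-D-735 (mean 662 against 577, p = 0.1 in the same exact permutation test, its lowest value). Results below are without replicate 2 unless it is named. All signals are log2 intensities minus the 75th percentile of the same array, so that 0 is a fairly bright gene, and differences are B16-D-735 minus B16-D on the log2 scale.

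Tumor cells can persist without growing out, held by arrest of their own cycle or by control through the immune system. Interferons bind surface receptors and act through factors such as STAT2 and IRF9, which together turn on antiviral genes, sensors of foreign RNA and, in many cells, the machinery that shows antigens to T cells. Inhibitors of cyclin-dependent kinases stop the cycle, and contact with the matrix reaches the cell through laminins, collagens and the integrins that bind them.

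The interferon-induced genes were the group that differed most: of them, 28 of 45 tested were higher and 0 lower, with a median difference of 1.36 against 0.04 over all genes tested. The inhibitor of cyclin-dependent kinases Cdkn1c was at least 27.4-fold higher by mean level, with B16-D arrays under background set at their background. It was well above background on 1 B16-D array of the main result. The coactivator of mitochondrial genes Ppargc1a was 6.74-fold higher. Matrix genes went both ways, 5 higher and 7 lower of 47. Col4a1 was at least 10.8-fold lower, and Dcn, tested only because B16-D-735 held it above background, at least 7.01-fold higher. Of 38 adhesion receptors 3 were higher and 1, the integrin subunit Itgb5, 12.5-fold lower. Pigment cell genes such as Tyr, Dct and Pmel had overlapping values in both lines. Along the chromosomes, the median of chromosome 10 was above 0 and that of chromosome 17 below 0.

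Of 24316 genes tested, 1956 passed an adjusted p of 0.05, which is 8.04%. Of these, 994 (4.09%) were higher in B16-D-735 and 962 (3.96%) lower. Most of the changes were small: 1208 of the 1956, or 61.8%, were under 2-fold, and 243 were at least 4-fold, 162 of them higher and 81 lower. The count of genes called moved with 2 arrays by more than 1.5 times: it was 1125 without B16-D replicate 1 and 999 without B16-D-735 replicate 2. In each of the 6 fits with 1 array left out, 847 of the 1956 were called wherever they were tested, 502 higher and 345 lower. In at least 1 of those fits 38 of the 1956 were not tested. With B16-D replicate 2 in the fit 1638 genes were called, 1440 of them among the 1956, and without B16-D replicate 0 2194 were called, 1512 of them among the 1956. A range given below for a list is that of its calls and its median over all 19 other fits, which leave out an array, add replicate 2, change scaling, background, filter or probes, use a block or take fewer arrays. In at least 1 of them the calls of every list moved by more than 1.5 times, those of the interferon list included (12 to 30 higher, 0 to 2 lower, median 0.95 to 1.63), and the median of 21 of 30 lists turned its sign. Within slide B, which holds replicate 2, the median of 17 lists had the reverse sign. The arrays of the lines did not overlap for 1947 of the called genes without replicate 2 and for 1609 with it. Of all genes tested they did not overlap for 4941 (20.3%) and 3299 (13.6%). A difference above 0 was found for 13385 of all 24316 genes tested, to be set beside such counts of lists and chromosomes below.

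Among the largest fitted rises was that of Rps6ka6, a kinase of the RSK family. It read -4.90, -7.11 and -7.24 in B16-D replicates 0, 1 and 3, -5.53 in replicate 2, and -0.80, -0.48 and -0.83 in B16-D-735 replicates 0, 1 and 2. All 3 arrays of B16-D-735 lay far above all 4 of B16-D. Since Rps6ka6 was not well above background on any array of B16-D, its rise is a bound, at least 16.5-fold (adjusted p = 8.85e-06), and the same wording marks such bounds below, for which replicate 2 is not counted. Where some arrays of the dimmer line were above background, the others enter such a bound at their background. Mrap, the accessory protein of melanocortin receptors, read -5.09, -4.48 and -5.18 in B16-D, -1.20 in replicate 2, and 0.37, 0.14 and 0.07 in B16-D-735. Replicate 2 came closest for Mrap but stayed below every array of B16-D-735, and the rise was at least 4.81 (fitted 5.11, SE 0.36, adjusted p = 2.52e-06; fitted 4.18 with replicate 2). The blood cell transcription factor Lyl1 rose by at least 3.76 (fitted 4.18, SE 0.27, adjusted p = 9.69e-07) and stood near its B16-D level in the sister lines, at -4.65 in B16-D-733 and -4.77 in B16-D-739. The complement regulator Cfi rose at least 10.6-fold, the kinase gene Nrk at least 7.28-fold, and the estrogen receptor Esr1 at least 4.97-fold, where the other probes of Esr1 gave differences down to 2.19. Mtus1, Phf11d and Lhx5 rose at least 5.39-fold, 4.18-fold and 3.81-fold, and Mtus1 was not called with the replicate number as a block. Capn6 rose by at least 3.91, but B16-D-733 and B16-D-739 also held more of it, at -2.26 and -3.03 against -1.03, -0.17 and 0.05 in B16-D-735.

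Among the largest fitted falls was that of Qpct, which makes pyroglutamate at the ends of peptides. It read -0.83, -1.15 and -1.01 in B16-D, -1.33 in replicate 2, and -7.23, -5.39 and -6.84 in B16-D-735. No array of B16-D-735 held it well above background, all lay below all of B16-D, and the fall was at least 17.0-fold (adjusted p = 1.30e-06). Tubb2b, a beta-tubulin of neural cells, read 1.24, 1.14 and 1.29 in B16-D, 1.03 in replicate 2, and -3.14, -3.01 and -2.51 in B16-D-735. It was high and even in B16-D and still measurable on every array of B16-D-735, and it fell by 4.11 (SE 0.22, adjusted p = 3.47e-07). B16-D-733 and B16-D-739 held Tubb2b at 1.89 and 1.94, and parental B16-M at -1.03. The synaptic adhesion gene Lrrc4b was 12.8-fold lower. The asparaginase Aspg fell at least 14.6-fold, the adenylyl cyclase Adcy2 at least 3.37-fold, the zinc finger factor Zfp521 at least 8.03-fold, the endothelin-converting enzyme Ece1 at least 4.23-fold, Jmjd8 at least 6.02-fold, Masp1 at least 2.58-fold and Rtn4rl1 at least 2.53-fold. Dpysl5, a protein of growing axons, fell at least 9.01-fold by its brightest probe, while its other probe gave -0.07.

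**Figure D1:**
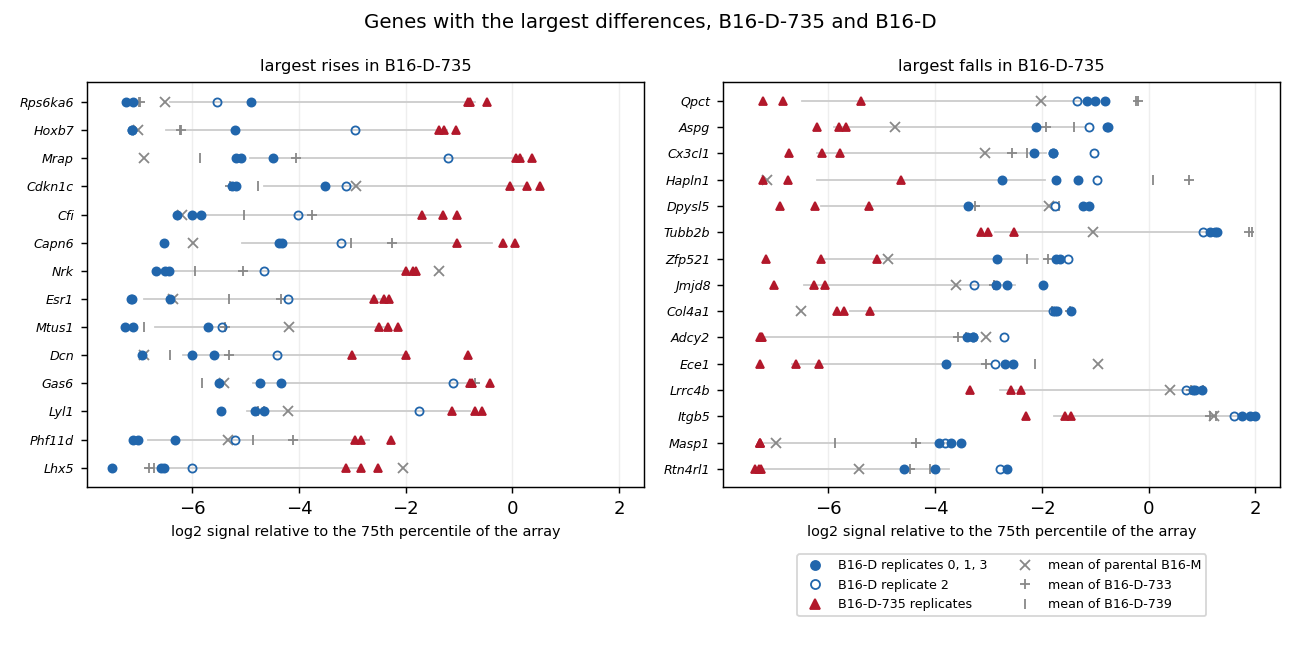
Log2 signal relative to the 75th percentile of the array (horizontal axis) of genes named in the text among those with the largest fitted rise (left) and fall (right) in B16-D-735. Triangles are B16-D-735 arrays, filled circles B16-D replicates 0, 1 and 3, the open circle replicate 2, grey signs the means of B16-M, B16-D-733 and B16-D-739, and in every row all triangles lie on the same side of all circles.

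**Figure D2:**
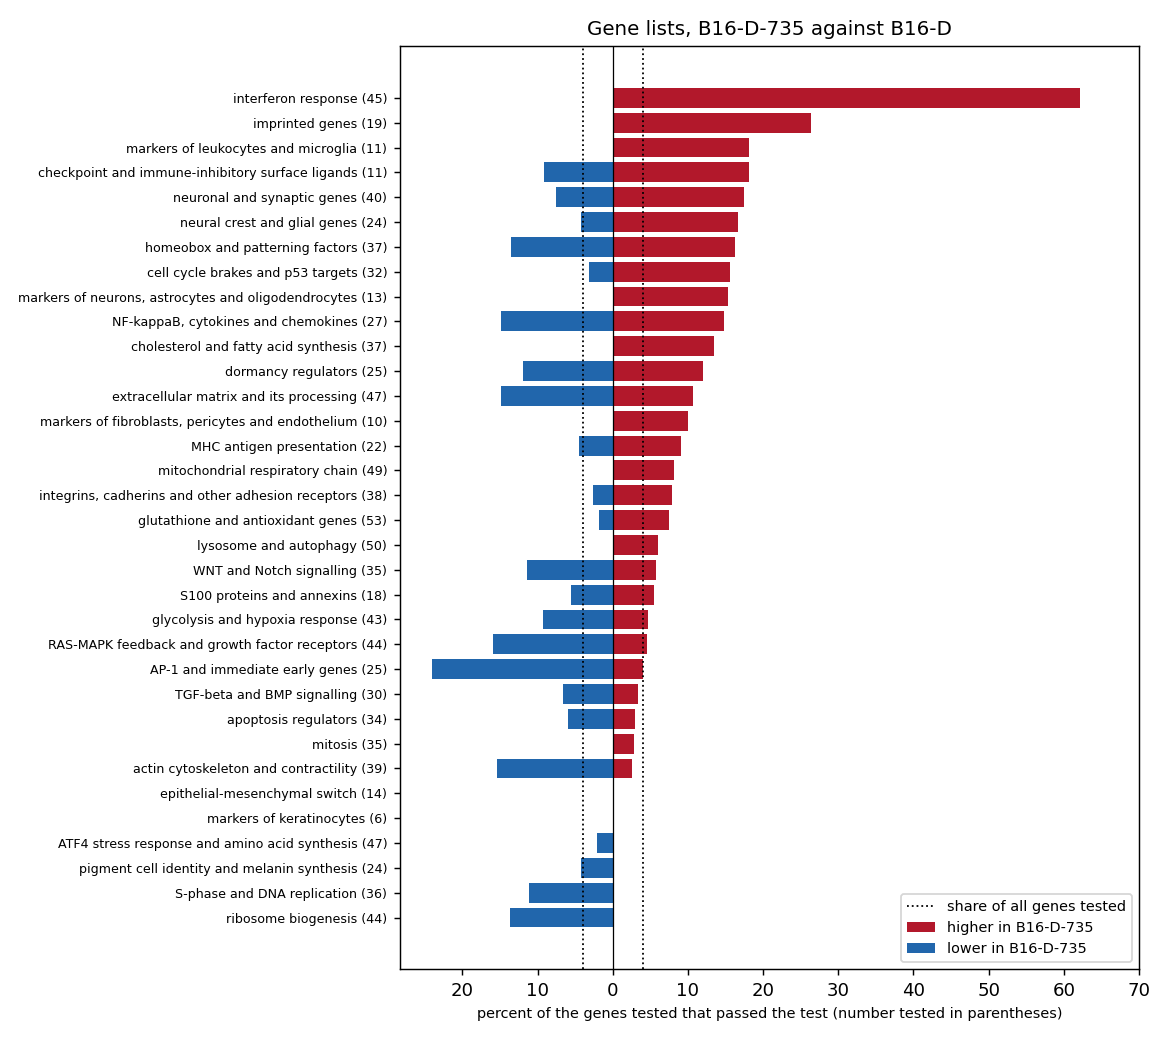
Percent of the genes tested in each list (rows, number tested in parentheses) that passed the test, higher in B16-D-735 to the right and lower to the left, with dotted lines at the shares of all genes tested, 4.09% and 3.96%. The interferon response reaches 62.2% on the higher side and has none on the lower.

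The interferon response was the list with the highest share of called genes, 28 of 45 tested or 62.2%, where 4.09% of all genes were called higher. Its median was 1.36 (1.31 with members of 1 line under background set at their bound), and 42 of the 45 had a difference above 0. By slide, the median was 1.14 within slide A, 1.74 within slide C and, with B16-D replicate 2, 0.66 within slide B, where all genes had medians of 0.01, -0.03 and -0.12. With slide as a block 29 members were called higher and 0 lower, median 1.42. Of the 28 called, 26 kept the call in each of the 6 fits with 1 array left out, 25 were called with replicate 2 and 27 without B16-D replicate 0; over all members of the list 27 and 30 were called higher in those fits. The 28 genes lay on 14 chromosomes, and 26 of them lay outside chromosome 10.

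Among the sensors and effectors, Oas1a, which makes the second messenger that activates RNase L, read 1.08, -0.10 and -0.23 in B16-D, -0.47 in replicate 2, and 3.32, 3.56 and 3.82 in B16-D-735. Replicate 0 was the highest B16-D array, and all of B16-D-735 lay above it. The rise of Oas1a was 9.99-fold (log2 3.32, SE 0.28, adjusted p = 8.85e-06), with 3.07 within slide A, 4.06 within slide C and 3.39 with slide as a block. Usp18, the protease that removes ISG15 and dampens the receptor, read -3.03, -3.60 and -3.75 in B16-D, -3.99 in replicate 2, and -0.80, -0.09 and 0.21 in B16-D-735. The arrays of the lines were again well apart, by 3.23 (SE 0.28, adjusted p = 1.07e-05). The GTPases Igtp and Irgm2, which guard the cell against vacuolar parasites, rose by at least 3.74 and by 3.63. Igtp read -4.27, -4.76 and -4.42 in B16-D, -3.51 in replicate 2, and -1.27, -0.64 and -0.24 in B16-D-735. Gbp7 rose at least 3.26-fold, but B16-D replicate 2 lay above all arrays of B16-D-735 at -2.04, and Gbp7 was not called with that array.

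Some factors that carry the signal were called higher, while others, given below, were not. Stat2 rose by 1.27 (adjusted p = 0.0174), and its call was lost without B16-D replicate 0 (1.06), without B16-D-735 replicate 1 (1.10) and without B16-D-735 replicate 2 (1.24). The following members were chosen after their values were seen. Irf7, the factor that amplifies type I interferon, read -1.36, -2.12 and -2.30 in B16-D, -2.40 in replicate 2, and 0.63, 0.71 and 0.97 in B16-D-735. Its rise was 6.50-fold (adjusted p = 1.15e-05) with no overlap. Irf9, a DNA-binding partner of STAT2, rose by 1.98. The RNA sensor Ddx58 (RIG-I) rose by 2.76 (adjusted p = 8.05e-06), the sensor Ifih1 (MDA5) by 1.53, Xaf1 by 2.88, Trim30a by 2.67, Trim25 by 1.66, Parp14 by 1.61, and the membrane proteins Ifitm3 and Bst2 by 1.27 and 1.14. Oas2 and Oasl2 rose at least 3.95-fold and 3.38-fold.

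Not every target moved. Irf1, a factor that interferon gamma induces, read 0.50, 1.77 and 1.80 in B16-D, 1.57 in replicate 2, and 1.06, 1.41 and 1.48 in B16-D-735. Those ranges overlap and the difference was -0.04 (adjusted p = 0.966). Further members chosen after their values were seen were Ifit2 at 0.11, Cxcl10 at 0.45 and Socs1 at 0.01, none of them called, and Adar, a target outside the list chosen likewise, was at -0.20. Isg15, the ubiquitin-like modifier, had a difference of 1.40 (adjusted p = 0.0840) with B16-D replicate 0 at 2.41 above the lowest array of B16-D-735 at 2.08, and it was called without that replicate (2.07) and with replicate 2 (1.52). Ifit1 differed by 1.36 (adjusted p = 0.136) and was called without B16-D replicate 0 (2.02). The receptor genes, also picked after seeing values, gave 0.07 for Ifnar1, -0.21 for Ifnar2 and 0.19 for Ifngr2, none called, and a rise of 0.79 for Ifngr1 (adjusted p = 8.16e-03).

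Set against the other lines, the level of the interferon list was above the parent in B16-D-735. Relative to the mean of parental B16-M, the median over the 45 members was -0.44, -0.69 and -0.80 in B16-D replicates 0, 1 and 3, -0.37 in replicate 2, and 0.61, 0.77 and 1.03 in B16-D-735 replicates 0, 1 and 2. The arrays of B16-D-733 lay between -0.55 and -0.47 and those of B16-D-739 between -0.81 and -0.47. For Oas1a the parent stood at 2.09, B16-D-733 at 1.19 and B16-D-739 at 0.67. Against the mean of B16-D-733 and B16-D-739, where 10.9% of all genes were called, 29 members were higher in B16-D-735, with a median of 1.33; this contrast shares the arrays of B16-D-735 with the main one, so the values are only set side by side. Titles of B16-D replicates 1, 2 and 3 carry a date of unstated meaning and those of replicate 0 and B16-D-735 none: with that as a block 25 members were higher, among undated arrays alone 15, so line and date are in part confounded, and whether the date plays a role was not tested.

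**Figure D3:**
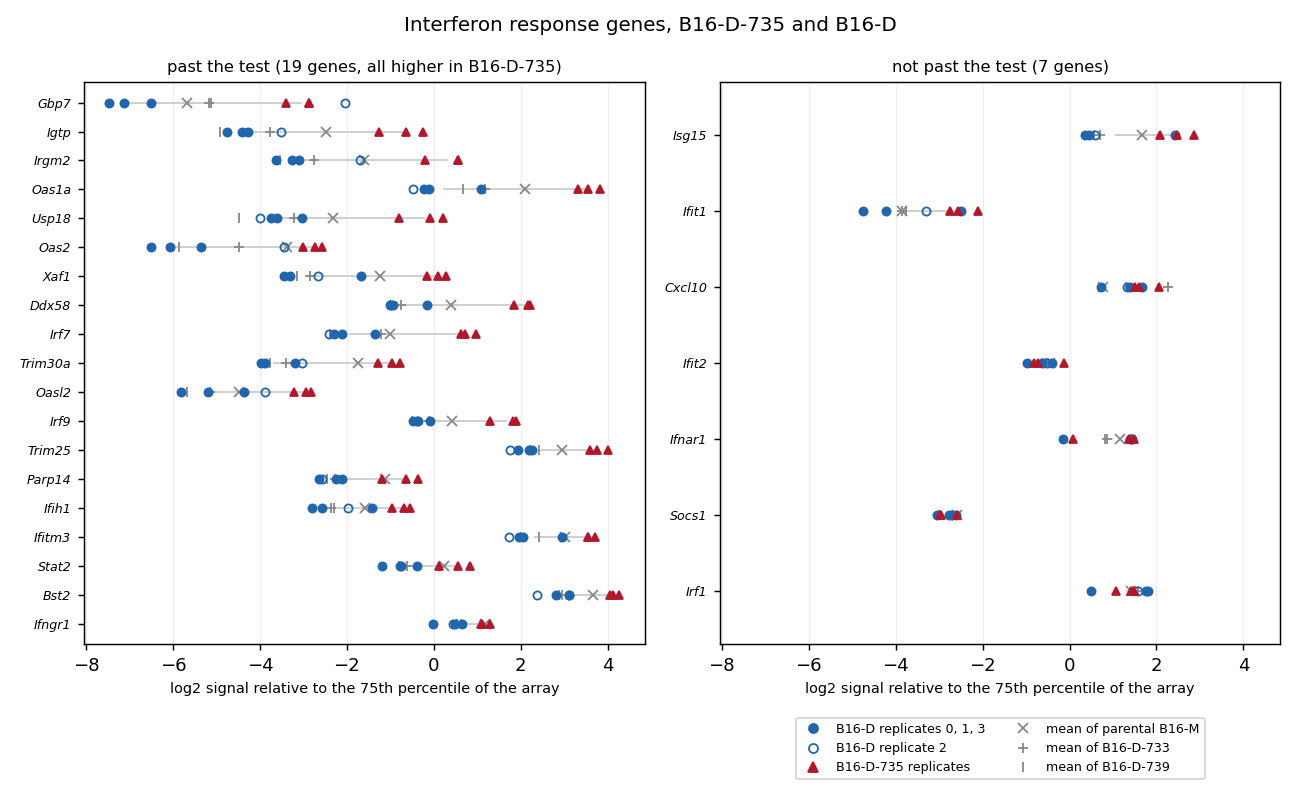
Log2 signal relative to the 75th percentile of the array (horizontal axis) of members of the interferon response named in the text (rows), those past the test on the left and the others on the right. Triangles are B16-D-735 arrays, filled circles B16-D replicates 0, 1 and 3, the open circle replicate 2, grey signs the means of B16-M, B16-D-733 and B16-D-739, and on the left the triangles lie to the right of the filled circles.

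Antigen presentation did not follow as a group. Of 22 genes tested 2 were higher and 1 lower, with a median of -0.04 (0.01 within slide A, 0.08 within slide C, 0.10 within slide B with replicate 2, range 0 to 3 higher, 1 to 3 lower, median -0.17 to 0.04). The class II chaperone gene H2-DMb1 read 0.01, -1.37 and -1.39 in B16-D, -1.58 in replicate 2, and -4.53, -3.95 and -4.76 in B16-D-735. It was low on all arrays of B16-D-735 and 11.3-fold lower overall (log2 -3.49, SE 0.38, adjusted p = 7.54e-05), while B16-D-733 and B16-D-739 held it at -0.56 and -0.52 and the parent at -3.38. The nonclassical class I gene H2-M3, which presents formylated peptides, rose at least 2.50-fold. Psmb9, a subunit of the immunoproteasome, was called higher, by at least 0.60 and fitted at 1.05, but not with B16-D replicate 2 (0.56) nor without B16-D replicate 0 (0.92), B16-D replicate 1 (0.99), B16-D-735 replicate 1 (1.00) or B16-D-735 replicate 2 (0.91). The classical class I genes H2-K1 and H2-D1 differed by -0.54 (adjusted p = 0.0777) and -0.16 (adjusted p = 0.777), and H2-K1 was called lower without B16-D-735 replicate 2 (-0.71). Their partners B2m and Tap1, chosen after their values were seen, differed by 0.31 and 0.37, without a call, though Tap1 was called without B16-D replicate 0 (0.88).

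Surface ligands that restrain or engage lymphocytes were few: 11 were tested, 2 were higher and 1 lower, with a median of 0.30 (0.26 within slide A, 0.21 within slide C, -0.03 within slide B with replicate 2, range 0 to 3 higher, 0 to 1 lower, median 0.12 to 0.58). Raet1e, a ligand of the NK cell receptor NKG2D, read 1.39, 0.87 and 0.78 in B16-D, 0.69 in replicate 2, and 2.22, 2.19 and 2.11 in B16-D-735. The 3 arrays of B16-D-735 were close together and above all of B16-D, by 1.16 (SE 0.16, adjusted p = 5.28e-04). H60b, another ligand of NKG2D, went the opposite way, at least 1.27-fold lower and well above background on 1 array of B16-D besides replicate 2. Lgals9 rose by 0.98, and without B16-D replicate 1 its difference of 0.91 was not called. Cd274, which encodes PD-L1, differed by 0.70 (adjusted p = 0.0696), with B16-D replicate 0 at -1.92 inside the range of B16-D-735, -2.02 to -1.50, and was called without that array (0.99) and with replicate 2 (0.75).

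Cytokines and chemokines of the NF-kappaB list, 27 tested, were split 4 higher and 4 lower, with a median of -0.13 (-0.24 within slide A, -0.13 within slide C, -0.01 with bounds, range 2 to 4 higher, 1 to 6 lower, median -0.30 to 0.13). Il18, a cytokine that drives interferon gamma in lymphocytes, read -0.19, -1.29 and -1.48 in B16-D, -1.12 in replicate 2, and 1.72, 1.75 and 1.66 in B16-D-735. Every array of B16-D-735 was above every array of B16-D, by 2.70 or 6.50-fold (SE 0.29, adjusted p = 8.25e-05). Il15, which sustains NK cells and memory T cells, rose by 1.33 (adjusted p = 5.37e-05), and Tnfrsf11b, the decoy receptor osteoprotegerin, at least 3.58-fold. Of the 8 calls of this list, 1 was not tested in at least 1 fit that left out an array of B16-D-735. The p-value of that call is not read as support. Cx3cl1, the chemokine fractalkine, read -2.15, -1.80 and -1.80 in B16-D, -1.03 in replicate 2, and -5.79, -6.74 and -6.12 in B16-D-735. It was not well above background in B16-D-735 and fell at least 8.99-fold (adjusted p = 2.08e-07). Tslp and the costimulatory ligand Tnfsf9 fell by 1.28 and 0.73. Nfkb1, Nfkb2 and Rela differed by -0.01, 0.50 and -0.24, and none of them was called.

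Grouped by chromosome, 690 tested genes of chromosome 10 had a median of 0.35, a factor of 1.27, and 147 of them were called higher against 5 lower, 22.0% in all. A difference above 0 was found for 86.8% of them. All 13 stretches of 10 Mb along chromosome 10 had a median above 0, from 0.25 to 0.50, and the median was 0.36 within slide A and 0.30 within slide C. Chromosome 17 ran the other way, with a median of -0.26 over 717 genes, 129 called lower and 13 higher, and all 9 of its stretches below 0, from -0.33 to -0.17. Chromosome 9 had a median of -0.22 with 101 genes lower and 17 higher, and chromosomes 12, 13 and 3 had -0.21, -0.16 and -0.12. Above 0 stood chromosome 4 at 0.13 with 80 higher and 17 lower, and chromosome X at 0.14 with 44 and 5. The counts moved more than the medians. With 1 array left out, the genes called higher on chromosome 10 were 74 to 170 (median 0.31 to 0.36). Those called lower on chromosome 17 were 52 to 100 (median -0.29 to -0.24) and 79 with replicate 2. With the arrays of both lines alone these counts were 17 and 11 (medians 0.35 and -0.27). Without a filter on dim probes they were 87 and 50 (medians 0.19 and -0.30). With undated arrays alone, where B16-D has 1 array, the medians were 0.30 and -0.32.

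Relative to parental B16-M, a measure chosen after the values were seen, the median of chromosome 10 was -0.20, -0.28 and -0.25 in B16-D replicates 0, 1 and 3, -0.34 in replicate 2, and 0.12, 0.13 and 0.06 in B16-D-735. B16-D-733 and B16-D-739 lay between -0.27 and -0.23, and the arrays of B16-M themselves between -0.07 and 0.07. B16-D and the sister lines were thus below every array of the parent. B16-D-735 replicates 0 and 1 were above those arrays, and replicate 2 was within their range. On chromosome 4 the same measure gave 0.20, 0.18 and 0.13 in B16-D-735 replicates 0, 1 and 2, more than on chromosome 10. For chromosome 17 the same measure gave 0.09, 0.05 and 0.10 in B16-D, -0.03 in replicate 2, and -0.14, -0.19 and -0.21 in B16-D-735. Copy number was not analysed here, and its part in these shifts was not tested. Genes named elsewhere and called higher that lie on chromosome 10 include S100b, Plagl1, Raet1e, Fabp7, Gja1, Plxnc1 and Stat2. Those called lower on chromosome 17 include Qpct, H2-DMb1, Cbs and Tnfsf9. Against the median of their chromosome went H60b, called lower on chromosome 10, and H2-M3 and Psmb9, called higher on chromosome 17.

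**Figure D4:**
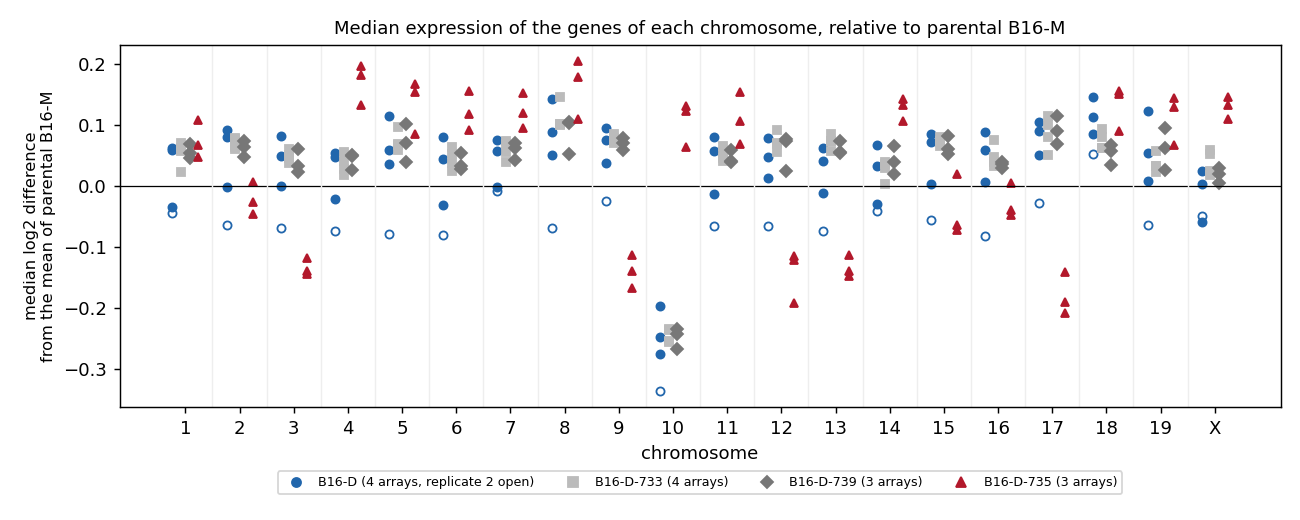
Median over the genes tested on each chromosome (horizontal axis) of the log2 difference from the mean of parental B16-M (vertical axis), 1 point per array of B16-D, B16-D-733, B16-D-739 and B16-D-735. On chromosome 10 the arrays of B16-D-735 lie above 0, from 0.06 to 0.13, and those of the other descendants below, and on chromosome 17 those of B16-D-735 are the lowest.

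The matrix list was divided: of 47 genes tested 5 were higher and 7 lower, median 0.02 (-0.03 within slide A, -0.00 within slide C, -0.29 within slide B with replicate 2, range 2 to 8 higher, 4 to 10 lower, median -0.10 to 0.11), and 9 of the 12 kept their call in each fit with 1 array left out that tested them. Col4a1, a chain of type IV collagen, read -1.76, -1.46 and -1.72 in B16-D, -1.78 in replicate 2, and -5.84, -5.23 and -5.70 in B16-D-735. B16-D held it evenly and B16-D-735 held it on no array well above background, a fall of at least 10.8-fold (adjusted p = 3.72e-07). The laminin chain Lama5 read 0.86, 1.03 and 0.53 in B16-D, 0.49 in replicate 2, and -1.52, -1.03 and -1.36 in B16-D-735. Its arrays did not overlap and it fell by 2.10 (SE 0.27, adjusted p = 3.75e-04). Lamb1 fell by 2.61, with its other probes down to a difference of -0.83, and Fkbp10, a chaperone of procollagen, fell by 2.43. Hapln1, which links hyaluronan to proteoglycans, fell at least 8.07-fold and was above background on 1 array of B16-D-735, while B16-D-733 and B16-D-739 held it at 0.76 and 0.09. Thbs1, which restrains new vessels, fell by 1.22.

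On the rising side of the matrix list stood decorin, Dcn, a small proteoglycan that binds collagen and TGF-beta. Dcn read -6.01, -6.93 and -5.60 in B16-D, -4.40 in replicate 2, and -0.83, -1.99 and -3.0 in B16-D-735. It was well above background in B16-D-735 and, of B16-D, on replicate 2 alone. In B16-D-735 it spread over more than 2 log2 units, and it rose at least 7.01-fold (adjusted p = 9.65e-05). Dcn passed the filter for signal above background through the arrays of B16-D-735 alone, and was not tested when 1 of them was left out. Its call thus depends on a filter that the difference itself decides, and the p-value is not read as support. Spp1, or osteopontin, rose by 1.71 and Emilin1, a glycoprotein of elastic fibers, by 1.52. Of the fibrillar collagens, Col1a2 differed by 0.90 (adjusted p = 0.0775), and Col1a1, under background in B16-D but for replicate 2, was not called (adjusted p = 0.0933) except without B16-D replicate 0.

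Of 38 integrins, cadherins and other receptors tested 3 were higher and 1 lower, median 0.12 (0.06 within slide A, 0.07 within slide C, -0.09 within slide B with replicate 2, range 1 to 5 higher, 1 to 4 lower, median -0.05 to 0.16; 3 higher and 4 lower with the replicate number as a block). Itgb5, the beta chain of a vitronectin receptor, read 2.00, 1.90 and 1.74 in B16-D, 1.59 in replicate 2, and -2.30, -1.45 and -1.56 in B16-D-735. All of B16-D was bright and all of B16-D-735 dim, 12.5-fold apart (log2 -3.65, SE 0.20, adjusted p = 3.72e-07), and the fall was -3.40 within slide A and -3.30 within slide C. Itga4, the alpha chain of the receptor for VCAM-1 and fibronectin, read 2.95, 2.76 and 2.68 in B16-D, 2.47 in replicate 2, and 4.02, 3.95 and 3.80 in B16-D-735. It rose without overlap by 1.12 (adjusted p = 1.34e-03), and its relative Itga9 by 0.85. Of 39 genes of the actin list 1 was higher and 6 lower, median -0.15 (-0.26 within slide A, -0.15 within slide C, 0.12 within slide B with replicate 2, range 0 to 3 higher, 0 to 11 lower, median -0.37 to -0.09), and 1 of the 7, the tropomyosin Tpm1, kept its call in each fit with 1 array left out. Without B16-D replicate 0 the actin list had 3 higher and 1 lower, with replicate 2 2 of each, and with the date in the title as a block 0 and 11. Tpm1 fell by 1.04 with its weakest probe at -0.27. None of the 14 genes of the epithelial-mesenchymal switch was called by limma (median -0.02, -0.06 within slide A, -0.18 within slide C, range 0 to 2 higher, 0 to 2 lower, median -0.28 to 0.18), and Vim and Cdh2 differed by 0.18 and -0.44, where Cdh2 was called lower without B16-D-735 replicate 1 (-0.61).

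Among the brakes of the cell cycle and p53 targets 5 of 32 were higher and 1 lower, median 0.09 (0.01 within slide A, 0.19 within slide C, range 1 to 6 higher, 0 to 3 lower, median -0.28 to 0.25). Cdkn1c, which encodes the kinase inhibitor p57, read -3.52, -5.26 and -5.19 in B16-D, -3.12 in replicate 2, and -0.04, 0.52 and 0.27 in B16-D-735. Of the B16-D arrays of the main result 1 held it well above background, all of B16-D-735 did, and there was no overlap. The rise was at least 27.4-fold with the other arrays of B16-D set at their background (fitted log2 4.91, SE 0.43, adjusted p = 1.18e-05), with a fitted 4.52 when replicate 2 is added. The parent stood at -2.93, B16-D-733 at -5.29 and B16-D-739 at -4.77. Gadd45g, a stress gene that slows growth, fell by 1.35. Those 2 were the calls of the 6 that held in each fit with 1 array left out. The inhibitors Cdkn1a and Cdkn1b differed by -0.25 and 0.13 and were not called.

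Cdkn1c is expressed from the maternal copy, and of 19 imprinted genes tested 5 were higher and 0 lower, median 0.20 (0.14 with bounds, 0.28 within slide A, 0.23 within slide C, range 2 to 6 higher, 0 to 1 lower, median -0.03 to 0.44, 3 higher and 0 lower with the replicate number as a block). Along its cluster on chromosome 7, whose order was read after the values were seen, the gene next to Cdkn1c, Gm33663, rose at least 9.09-fold (adjusted p = 7.30e-06). On the other side Kcnq1ot1, the RNA that silences the cluster on the paternal copy, differed by 0.08 (adjusted p = 0.971) and Tssc4 by -0.06. Phlda2 and Cd81, further out, were called higher at 0.81 and 0.57. The call of Phlda2 was lost on leaving out any array but B16-D replicate 0 (0.75 to 0.84), and that of Cd81 without B16-D replicate 1, B16-D replicate 3, B16-D-735 replicate 1 or B16-D-735 replicate 2 (0.53 to 0.56); neither was called with the replicate number as a block (0.81 and 0.54). Slc22a18 differed by 1.13 (adjusted p = 0.161) and was called without B16-D replicate 0 (1.83). Plagl1, an imprinted zinc finger factor that slows the cycle, read 6.26, 5.98 and 6.17 in B16-D, 5.94 in replicate 2, and 7.11, 7.04 and 7.25 in B16-D-735. The increase was even across arrays, 1.99-fold (adjusted p = 7.54e-05). Igf2r differed by 0.20, and H19 and Igf2 were too dim to test.

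Of 36 genes of S phase 0 were higher and 4 lower, median -0.17 (-0.05 within slide A, -0.35 within slide C, 0.16 within slide B with replicate 2, range 0 higher, 0 to 5 lower, median -0.30 to -0.03, 0 higher and 0 lower with the replicate number as a block), and 0 of the 4 kept their call in each fit with 1 array left out, and 6 of the 36 were above 0. Of 35 mitosis genes 1 was higher and 0 lower, median 0.03 (0.09 within slide A, -0.14 within slide C, range 0 to 1 higher, 0 to 2 lower, median -0.10 to 0.19). The replication helicase genes Mcm2 and Mcm3 differed by -0.15 and -0.31, and the cyclins Ccnb1, Ccnb2 and Ccna2 by -0.18, -0.07 and -0.32. None of these 5 was called.

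Of 25 genes described as regulators of dormancy 3 were higher and 3 lower, median 0.13 (0.14 within slide A, 0.08 within slide C, range 1 to 5 higher, 0 to 4 lower, median -0.00 to 0.18). Gas6, the ligand of AXL, read -5.50, -4.72 and -4.33 in B16-D, -1.12 in replicate 2, and -0.79, -0.41 and -0.75 in B16-D-735. Replicate 2 lay close under B16-D-735 and far above the other B16-D arrays, and the rise was at least 3.76 without it (fitted 4.20, SE 0.44, adjusted p = 5.79e-05; fitted 3.27 with it). B16-D-733 held Gas6 at -0.69, like B16-D-735, and B16-D-739 at -5.81. Rarb, a receptor of retinoic acid, read -0.20, -0.94 and -1.33 in B16-D, -1.24 in replicate 2, and 1.01, 0.89 and 0.79 in B16-D-735. It rose by 1.72 (adjusted p = 6.68e-04) without overlap. In the same list Thbs1 fell by 1.22 and Tpm1 fell by 1.04. Nr2f1 and Sox9, both tied to quiescence of tumor cells, differed by -0.25 and 0.52 and were not called.

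Signalling lists gave mixed changes. Of 44 genes of the RAS-MAPK list 2 were higher and 7 lower, median -0.10 (-0.19 within slide A, -0.21 within slide C, 0.07 within slide B with replicate 2, range 0 to 5 higher, 0 to 7 lower, median -0.26 to -0.01, 5 higher and 5 lower with the replicate number as a block), with 1 of the 9 calls, Phlda1 at 0.71, held in each fit with 1 array left out. The feedback phosphatases Dusp4 and Dusp6 differed by -0.14 and 0.11, uncalled. The receptor Met was higher by 0.97, and its call was lost without B16-D replicate 1 (0.80) and without B16-D replicate 3 (0.81). Kit, the receptor of stem cell factor, was lower at -0.93, and its call was lost without B16-D replicate 1 (-0.82), B16-D replicate 3 (-0.91) or B16-D-735 replicate 2 (-0.69) and with the replicate number as a block (-0.96). Myc read 1.79, 2.03 and 1.64 in B16-D, 1.58 in replicate 2, and 1.42, 0.95 and 0.64 in B16-D-735. The arrays of Myc just failed to overlap, and the difference of -0.82 (adjusted p = 0.0412) was not called without B16-D replicate 0 (-0.83), 1 (-0.71) or 3 (-0.91), nor without B16-D-735 replicate 1 (-0.79) or 2 (-0.63).

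Of 25 AP-1 and immediate early genes 1 was higher and 6 lower, median -0.13 (-0.39 within slide A, -0.15 within slide C, 0.36 within slide B with replicate 2, range 1 to 2 higher, 1 to 6 lower, median -0.34 to -0.07). Batf, an AP-1 factor of lymphoid and myeloid cells, read -1.62, -1.52 and -1.65 in B16-D, -1.67 in replicate 2, and 0.11, 0.27 and 0.23 in B16-D-735. The values were tight in both lines and 3.48-fold apart (adjusted p = 6.28e-06), and B16-D-733 and B16-D-739 both stood at 0.35, level with B16-D-735. Its relative Batf3 fell by 1.46 (adjusted p = 2.27e-04), and Nr4a2, picked after its values were seen, by 0.61. Fos itself overlapped between the lines and differed by -1.03 (adjusted p = 0.281). Of 35 WNT and Notch genes 2 were higher and 4 lower, median 0.05 (0.01 with bounds, -0.04 within slide A, -0.16 within slide C, -0.43 within slide B with replicate 2, range 0 to 4 higher, 0 to 5 lower, median -0.25 to 0.46), and the rises, Dkk3 by 0.84 and the receptor Fzd1 by 0.74, kept their calls in each fit with 1 array left out. Of 30 TGF-beta and BMP genes 1 was higher and 2 lower, median 0.09 (-0.02 within slide A, 0.12 within slide C, -0.01 within slide B with replicate 2, range 1 to 3 higher, 0 to 3 lower, median -0.04 to 0.11). Fstl1 rose by 1.66, though B16-D-733 and B16-D-739 were near B16-D-735 at 0.24 and 0.18, and Smad3, which carries the TGF-beta signal to the nucleus, fell by 0.49. The other fall, Ltbp1, was above background on no array but B16-D replicate 2, and its call was lost with B16-D replicate 2, on leaving out any array but B16-D replicate 0 and with the replicate number as a block. The ligands Tgfb1, Tgfb2 and Tgfb3 differed by 0.61, 0.48 and 0.17, uncalled, and Tgfb1 was called without B16-D replicate 0 (1.31).

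Among metabolic genes Ppargc1a, which encodes PGC-1alpha, rose. It read 1.49, 0.32 and -0.01 in B16-D, 0.04 in replicate 2, and 3.52, 3.33 and 3.19 in B16-D-735. B16-D replicate 0 was the highest of its line, all of B16-D-735 was above it, and the rise was 6.74-fold (log2 2.75, SE 0.43, adjusted p = 1.39e-03), 2.43 within slide A and 3.21 within slide C. The respiratory chain list, which includes it, had 4 of 49 genes higher and 0 lower with a median of 0.20 (0.26 within slide A, 0.22 within slide C, range 0 to 17 higher, 0 lower, median 0.06 to 0.32), and 43 of the 49 were above 0. With slide as a block 14 were higher, with replicate 2 11, and 1 or 0 with arrays scaled to their median, with the date in the title as a block, without a filter on dim probes, with the arrays of both lines alone or with undated arrays alone. The next largest call was Ndufa4, a subunit of the terminal oxidase, at 0.49, which was lost without B16-D replicate 1 (0.42), and 1 of the 4 calls, that of Ppargc1a, held in each fit with 1 array left out.

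Of 43 glycolysis and hypoxia genes 2 were higher and 4 lower, median -0.24 (-0.22 within slide A, -0.14 within slide C, 0.23 within slide B with replicate 2, range 2 to 3 higher, 0 to 11 lower, median -0.38 to -0.14; 2 higher and 11 lower, median -0.38, with the replicate number as a block, and 2 and 0 with the arrays of both lines alone). Slc16a3, the exporter of lactate, read 2.07, 2.60 and 1.44 in B16-D, 1.24 in replicate 2, and 0.08, -1.15 and -0.96 in B16-D-735. It was lower on every array of B16-D-735, 6.55-fold (adjusted p = 6.56e-04). Ldhb, the lactate dehydrogenase subunit of oxidative tissues, read 4.58, 4.48 and 4.35 in B16-D, 3.91 in replicate 2, and 5.72, 6.09 and 5.64 in B16-D-735. It rose without overlap by 1.35 (SE 0.15, adjusted p = 7.92e-05), and the phosphofructokinase Pfkp by 1.40. The glucose transporters Slc2a1 and Slc2a3 differed by -0.47 and -0.49, uncalled, and Slc2a3 was called lower without B16-D replicate 3 (-0.61), and both with the replicate number as a block (-0.58 and -0.61). Of 37 genes of cholesterol and fatty acid synthesis 5 were higher and 0 lower, median 0.11 (0.20 within slide A, 0.02 within slide C, range 0 to 6 higher, 0 to 1 lower, median -0.02 to 0.27), and the reductase Dhcr7 rose by 0.65, while Hmgcs1 differed by 0.04. Of 53 glutathione and antioxidant genes 4 were higher and 1 lower, median -0.14 (-0.21 within slide A, -0.07 within slide C, 0.37 within slide B with replicate 2, range 0 to 7 higher, 0 to 12 lower, median -0.59 to 0.04; 2 higher and 5 lower with the replicate number as a block), with Gstt3 up by 0.62 and Gstm7 at least 2.11-fold down. With the date in the title as a block 1 of the glutathione list was higher and 12 lower (median -0.43), and with undated arrays alone 0 and 10 (median -0.59). Of 47 ATF4 genes 0 were higher and 1 lower, median -0.10 (-0.29 within slide A, 0.05 within slide C, 0.58 within slide B with replicate 2, range 0 to 3 higher, 1 to 3 lower, median -0.57 to 0.10; 1 higher and 3 lower with the replicate number as a block): Cbs, the entry to transsulfuration, fell by 1.60, and Atf4 and Ddit3 differed by -0.24 and 0.36, with Ddit3 called without B16-D replicate 0 (0.96).

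Ribosome biogenesis had a median of -0.31 (-0.30 within slide A, -0.41 within slide C, 0.24 within slide B with replicate 2, the reverse sign, range 0 to 1 higher, 0 to 8 lower, median -0.46 to -0.22). Of its 44 genes 0 were higher and 6 lower, and 6 were above 0. Rrp9, a processing factor, fell by 0.89 and was the 1 call of the 6 that held in each fit with 1 array left out, and Wdr43, which fell by 0.79, was not called without B16-D-735 replicate 2 (-0.67). Npm1 and Fbl differed by -0.32 and -0.15. Of 50 lysosome and autophagy genes 3 were higher and 0 lower, median 0.08 (0.07 within slide A, 0.20 within slide C, range 0 to 9 higher, 0 to 2 lower, median -0.20 to 0.26). Hspb8, a chaperone of selective autophagy, read -2.40, -4.82 and -4.73 in B16-D, -3.41 in replicate 2, and 0.19, 0.08 and -0.18 in B16-D-735. It rose 16.1-fold without overlap (adjusted p = 5.79e-04), and B16-D-733 and B16-D-739 had even less, -7.24 and -6.64. Of 34 apoptosis genes 1 was higher and 2 lower, median 0.05 (0.02 within slide A, 0.04 within slide C, range 0 to 4 higher, 0 to 3 lower, median -0.09 to 0.10, 2 higher and 3 lower with the replicate number as a block), and 0 of the 3 calls held in each fit with 1 array left out; Mcl1, lower at -0.57, lost it without B16-D-735 replicate 2 (-0.52) and with B16-D replicate 2 (-0.46), and Bcl2 and Bcl2l1 differed by 0.02 each.

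The label melanoma was checked against pigment genes, and 24 of 26 were well above background on every array of B16-D-735, while Ednrb and Irf4 were above background on B16-D replicate 2 alone, which had all 26. Of the 24 tested 0 were higher and 1, Kit, lower, median 0.10 (0.01 within slide A, 0.18 within slide C, range 0 to 4 higher, 0 to 1 lower, median -0.12 to 0.22). Tyr, the enzyme that starts melanin, read 3.53, 2.96 and 2.79 in B16-D, 2.58 in replicate 2, and 3.38, 3.20 and 3.21 in B16-D-735. The lines overlapped, and the difference was 0.17 (adjusted p = 0.737). Mitf, Tyrp1, Dct, Pmel, Mlana and Sox10 differed by -0.06, 0.05, -0.04, 0.26, -0.01 and -0.07, and Pmel was called higher without B16-D replicate 0 (0.40).

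Of 24 neural crest and glial genes 4 were higher and 1 lower, median 0.16 (0.05 with bounds, 0.19 within slide A, 0.06 within slide C, -0.35 within slide B with replicate 2, range 2 to 6 higher, 0 to 2 lower, median -0.15 to 0.18). S100b, a calcium-binding protein of melanocytes and glia, read 4.28, 3.33 and 3.23 in B16-D, 3.07 in replicate 2, and 5.03, 5.41 and 5.43 in B16-D-735. All of B16-D-735 was above B16-D, 3.20-fold (adjusted p = 6.50e-04), and near the parent at 4.97. Fabp7, a fatty acid carrier of radial glia, rose by 1.15 and Gap43 at least 2.54-fold, while the water channel Aqp1 fell by 2.06. Of the 5 calls of this list, 1 was not tested in at least 1 fit that left out an array of B16-D-735. The p-value of that call is not read as support. S100b was also the 1 rise among 18 S100 proteins and annexins, against 1 fall, median -0.05 (-0.30 within slide A, -0.06 within slide C, 0.21 within slide B with replicate 2, range 0 to 2 higher, 0 to 4 lower, median -0.44 to 0.15; 1 higher and 0 lower with the replicate number as a block).

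Of 40 neuronal and synaptic genes 7 were higher and 3 lower, median 0.18 (0.16 with bounds, 0.12 within slide A, 0.05 within slide C, -0.21 within slide B with replicate 2, range 2 to 9 higher, 0 to 3 lower, median -0.01 to 0.29). Plxnc1, a semaphorin receptor, read 0.77, 0.43 and 0.39 in B16-D, 0.37 in replicate 2, and 1.87, 1.98 and 2.08 in B16-D-735. It rose evenly by 1.45 (SE 0.14, adjusted p = 2.25e-05). Tubb3, another neural tubulin, rose by 1.14, opposite to Tubb2b, and the potassium channel Kcnn4 by 2.16, where B16-D-733 and B16-D-739 were as high at -0.33 and -0.98 as B16-D-735 at -0.22, -0.74 and -0.94. Uchl1 and the synaptic organizer Nlgn2 fell by 1.40 and 1.11. Of the 10 calls of the neuronal list, 1 was not tested in at least 1 fit with 1 array left out. Of 37 homeobox and patterning factors 6 were higher and 5 lower, median -0.05 (0.04 within slide A, -0.04 within slide C, range 2 to 6 higher, 1 to 6 lower, median -0.19 to 0.08), and 8 of the 11 held in each fit with 1 array left out. Hoxb7 read -5.19, -7.12 and -7.13 in B16-D, -2.95 in replicate 2, and -1.37, -1.28 and -1.05 in B16-D-735. It was measurable in B16-D-735 alone of the pair besides replicate 2, and rose at least 11.4-fold (adjusted p = 1.22e-04). Gata3 rose by at least 2.25 and Eya4 by 0.99, while Six4 fell by 0.89 and Hoxa11 by 1.32.

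Many markers of other cell types were not above background, except on B16-D replicate 2, which is not counted in the numbers that follow unless it is named. In bulk RNA such as this, fewer cells of a type and less RNA per cell cannot be told apart. Of 23 leukocyte and microglial markers 12 were above background on no array of either line, among them Ptprc, Cd8a, Tyrobp and Lyz2, against 20 of 23 above it on replicate 2, and of 11 tested 2 were higher, Coro1a and Tmem119 by at least 1.22 each, neither called with replicate 2 (fitted 0.91 and 1.11), and 9 of the 23 were above background on every array of B16-D-735. Their summed signal, in units of the 75th percentile, was 7.79, 7.47 and 13 in B16-D, 17.2 in replicate 2, and 10.0, 7.49 and 14.5 in B16-D-735, with Itgam the brightest. Of 22 markers of neurons, astrocytes and oligodendrocytes 9 were not above background, including Rbfox3, Syt1, Gad1 and Olig2 (20 were on replicate 2, those 4 included), 10 were above it on every array of B16-D-735, and of 13 tested 2 were higher: S100b and the connexin Gja1, which rose by 2.50. Their sum was 34.4, 25.3 and 25.1 in B16-D, 24.4 in replicate 2, and 51.6, 64.5 and 62.7 in B16-D-735, with S100b the brightest. Of 22 markers of fibroblasts, pericytes and endothelium 12 were not above background, including Col3a1, Lum, Cdh5 and Kdr (19 were on replicate 2). On every array of B16-D-735 9 were above it. Among 10 tested 1 was higher, Dcn, which was tested only because B16-D-735 held it above background. The sum of the 22 markers, led by Acta2, was 40.5, 33.1 and 28.5 in B16-D, 23.5 in replicate 2, and 28.8, 28.8 and 22.7 in B16-D-735. Of 14 keratinocyte markers 8 were not above background, including Krt1 and Krt10 (12 were on replicate 2), 3 were above it on every array of B16-D-735, 0 of 6 tested was called, and the sum, led by Trp63, was 8.75, 8.41 and 10.1 in B16-D, 10.8 in replicate 2, and 11.6, 8.53 and 11.6 in B16-D-735. The part of such cells in the results on S100b, Gja1 and Dcn was not tested. Of 9 genes of the Y chromosome and Xist 8 were above background on no array of either line, while 8 were on replicate 2, and 0 were tested.

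The test was limma with a mean per line over 16 melanoma arrays of 5 lines, adjusted by Benjamini and Hochberg over all 24316 genes. B16-D-733 replicates 1 and 1b, whose titles share line, number and date, entered as separate arrays. What that does to the spread was not tested. Scaling each array to its median in place of its 75th percentile moved the median difference of all genes from 0.04 to -0.08, which left the directions of the interferon list and of chromosomes 10 and 17 as they were (1.23, 0.22 and -0.39), with 31 genes higher on chromosome 10 and 47 lower on chromosome 17, brought chromosomes 4 and X to -0.00 and 0.02, and turned the sign of list medians near 0, those of pigment, matrix, integrin, mitosis, brake, dormancy, cholesterol, lysosome, apoptosis, WNT and TGF-beta genes. With the arrays of both lines alone 313 genes were called, 12 of the interferon list among them.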

How the data were processed

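RNA of 24 samples was labelled with Cy3 and hybridised to Agilent mouse arrays, and the values read here are the background-subtracted, detrended intensity of each spot, made by the authors with Agilent Feature Extraction 10.7.3.1 and deposited without scaling between arrays. Log2 intensities of spots that are not controls were reduced by the array's 75th percentile, outlier spots were left out, spots of a probe were averaged, and the brightest probe stood for each gene (22911 symbols and 22711 transcripts without a symbol, of which 24316 were well above background on 3 or more of the 16 melanoma arrays of the fit). Of the genes tested, 14139 could be placed on chromosomes through RefSeq names.

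Lines were compared by limma (version 3.58.1, run under R 4.3.3) in a model of 1 mean per line over the 16 arrays; p-values are two-sided and adjusted after Benjamini-Hochberg, with 0.05 as threshold; tables and plots used Python 3.11.15, pandas 2.3.3 and matplotlib 3.10.9, and the fit was tested on simulated data. B16-D replicate 2 was left out because an earlier account of these files gave it the most spots above background, and both it and replicate 0 were varied. Leaving out each other array, scaling, filters, probe choice, blocks, subsets of arrays and background correction were tried. The correction was normexp, on median spot signals since the files read hold a median but no mean. A count of the called interferon genes outside chromosome 10, made without a new fit, was added after seeing the data. The small number of arrays limits precision.

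Members and gene lists were chosen with earlier results of these data known. Named are the 15 largest fitted rises and 15 largest fitted falls with all arrays apart, up to 5 called members per direction of each list, the first 3 members of each list and the cell type markers, other than those said to be chosen after their values were seen; some that the rule gives are not reported here.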

Additional observations from a re-analysis of the deposited data

Results flagged for a closer look

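Of 178 values compared over the 4 B16-D arrays, namely array measures and the log2 signals of named genes, 16 had 1 array far from the other 3, where chance gives about 1 in 20. The median intensity of B16-D replicate 2, 155.4, was the array measure among them. Replicate 2 also stood apart for Adcy2 (-2.71), Gstm7 (-2.76), Nfkb1 (-0.81), Nrk (-4.66) and Wdr43 (2.32).

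B16-D replicate 0 stood apart for Cd274 (-1.92), Ddit3 (2.15), Ddx58 (-0.15), Fstl1 (-1.50), H2-DMb1 (0.0068), Ifnar1 (-0.14), Isg15 (2.41), Kcnq1ot1 (-0.23), Plxnc1 (0.77) and Slc22a18 (3.14). Of the genes that replicate 0 moved, Ddx58, Fstl1, H2-DMb1 and Plxnc1 kept their calls without it, and Ddit3 and Slc22a18 were called higher without it alone; Cd274 and Isg15 were called higher without it and also with replicate 2 added.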

How the results depend on the processing

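The count of genes called, 1956, ran from 999 to 2194 over the fits with 1 array left out. It was 849 with arrays scaled to their median, 1206 without a filter on dim probes, 313 with the arrays of both lines alone and 884 with undated arrays alone, where B16-D replicate 0 is the only array of its line and is assumed to vary like the others. Other settings gave 1524 to 2807. The interferon genes called higher, 28, were 12 with the arrays of both lines alone and 15 with undated arrays alone, and 24 to 30 elsewhere, 26 without those of chromosome 10, a setting chosen after seeing the data. None was called lower, except 1 with the date in the title as a block and 2 with undated arrays alone.

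With the replicate number as a block 2438 genes were called. Of genes named, with fitted values, Cd81 (0.54), Kit (-0.96), Ltbp1 (-0.99), Mtus1 (4.04) and Phlda2 (0.81) were no longer called, and Slc2a1 (-0.58) and Slc2a3 (-0.61) were. Deviations of arrays of equal number correlated at 0.256 and 0.667 in the main result, which holds 2 such pairs, and at 0.171, 0.699 and 0.42, all over 0.1, with B16-D replicate 2. There B16-D and B16-D-735 replicates 1 and 2 were closest to their own number and replicates 0 were not: B16-D replicate 0 was at 0.184 with B16-D-735 replicate 1, and B16-D-735 replicate 0 at 0.343 with B16-D replicate 3. The pair at 0.667 shares a slide. In the main result, pairs of unlike number that share a slide were B16-D replicate 3 with B16-D-735 replicate 2, at 0.621. The other was B16-D replicate 0 with B16-D-735 replicate 1, at 0.086. The labels give no pairing, so the main result has no block, and the ranges of the gene lists in the text include the block.

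Of 115 called genes named, 55 kept direction and call in every fit and none reversed. In each fit that left out an array of B16-D-735, 112 of the 115 were tested. Dcn is thus not the only named gene whose test rested on the arrays of that line. Why these settings differ was not tested. Signal near background limits what can be said of dim genes.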
